A study of Mus musculus with 9 samples.

Results

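The genes examined were 10 CC chemokine and receptor genes that steer lymphocytes and dendritic cells through skin: Ccr7 with its ligands Ccl19 and Ccl21a, Ccr4 with Ccl17 and Ccl22, Ccr10 with Ccl27a, and Ccr6 with Ccl20. They were picked by name as 4 receptors with their ligands, with the difference between the groups of this experiment already known, and were 10 of the 34637 named genes of the FPKM table and of the 55401 genes of the count table. Because the difference between the groups entered the choice, it is given below as a description. The sharing of sequence between gene copies did not enter the choice. The relations between genes over single libraries were not used for the choice, but they run over both groups. Part of the difference between the groups can therefore enter these relations, and values on deviations from the group means are given for some.

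RNA-seq was done on back skin of male C57BL/6 mice aged 6 to 8 weeks with dermatitis induced by DNCB, a small reactive molecule that raises a contact allergy. All mice of both groups were sensitized with 1% DNCB on day 1 and challenged with 0.5% DNCB from day 4 to day 21, and skin was taken on day 28. The Model group (4 libraries) was given water, and the FJDHF-M group (5 libraries) was given Fangji Dihuang formulation, a herbal decoction, by mouth every day after day 7. DNCB dermatitis is a contact allergy and stands for atopic dermatitis only as a model. Normal skin was not analysed here, so the values say nothing about what DNCB itself changed.

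The columns of the deposited tables carry codes that no label explains. Columns with MR in their code (5) were read as FJDHF-M and those with MXL (4) as Model, since there are as many columns as samples in each group and MX abbreviates the word for model in Chinese. The direction of each difference between the groups rests on this assignment. Codes such as MR3_4 or MXL12 may mark RNA from more than 1 mouse, so each n counts libraries, and p-values measure the spread between libraries.

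The libraries held from 74648669 to 79474215 counts in all. A count of 3 or fewer was taken as the floor, which corresponds to 0.0375 to 0.0415 CPM, that is counts divided by the library size that edgeR's TMM method gives and put on the usual scale of CPM. The floor covers counting error only. Of the 36 pairs of libraries, none agreed within sampling noise, with a chi-square per degree of freedom between 126 and 587. The skeletal muscle marker score, a mean of log2(CPM + 0.5) over 8 genes, ranged from 5.47 to 10.5 in the Model libraries and from 7.21 to 9.72 in the FJDHF-M libraries, so the share of muscle RNA differed between libraries within both groups. Whole skin was sequenced, and fewer cells of a type cannot be told apart from less RNA per cell. As a check of the tissue, the keratin gene Krt5 of the epidermis had a mean level of 1425 CPM in Model and 1581 CPM in FJDHF-M.

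Chemokines are small secreted proteins that guide cells by way of receptors coupled to G proteins, and the CC class is named for a pair of neighbouring cysteines. CCR7 is carried by mature dendritic cells and by naive and central memory T cells, and it leads dendritic cells from the skin into lymphatic vessels and on to the lymph node along CCL21 and CCL19. CCR4 and its ligands CCL17 and CCL22 draw type 2 helper and skin-homing T cells, and CCL17 serves as a marker of severity in atopic dermatitis. CCR10 is the receptor of CCL27, a chemokine of keratinocytes, and CCR6, present on cells that make IL-17, on dendritic cells and on B cells, is the receptor of CCL20.

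Ccl21a is the most abundant of these genes in the data, and its reads are hard to place, because the mouse genome holds near-identical copies of it. Ccl21a lies on chromosome 4 at chr4:42772860-42773993 on the minus strand (GRCm38, as are all positions below). The copies Ccl21d, Gm13304, Ccl21b and Gm10591 lie on the plus strand of the same chromosome, at chr4:41903610-41904743, chr4:42114817-42115917, chr4:42255693-42256825 and chr4:42612121-42613253. The coding sequence of 399 bases differs from that of Ccl21a in each of the 4 copies by the same 2 substitutions, T84A and C194T, with the base of Ccl21a first and positions counted from the first base of the start codon. The stretch of coding sequence from base 76 to base 204 that holds both is shown, from the GENCODE M21 transcripts, because it contains the coding bases that can assign a read to Ccl21a. The differing bases are in capitals.
Ccl21a: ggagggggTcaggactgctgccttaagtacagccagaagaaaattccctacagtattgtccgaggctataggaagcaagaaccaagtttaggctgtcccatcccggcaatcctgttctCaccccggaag
Ccl21d, Ccl21b, Gm10591 and Gm13304: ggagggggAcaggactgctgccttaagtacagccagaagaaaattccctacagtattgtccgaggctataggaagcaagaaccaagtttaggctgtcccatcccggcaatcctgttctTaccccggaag

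When each transcript was read in windows of 150 bases, 243 of the 721 windows of Ccl21a (33.7%) also occurred in another copy. That share was 95.4% for Ccl21d and 100.0% for each of Ccl21b, Gm10591 and Gm13304, so for reads of that length nearly all counts of the copies depend on how reads that match several genes were split. Ccl27a has copies as well, Ccl27b and Gm13306, with 111 of the 692 windows of Ccl27a, 97.5% of those of Ccl27b and 69.0% of those of Gm13306 found in another copy.

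**Figure D1:**
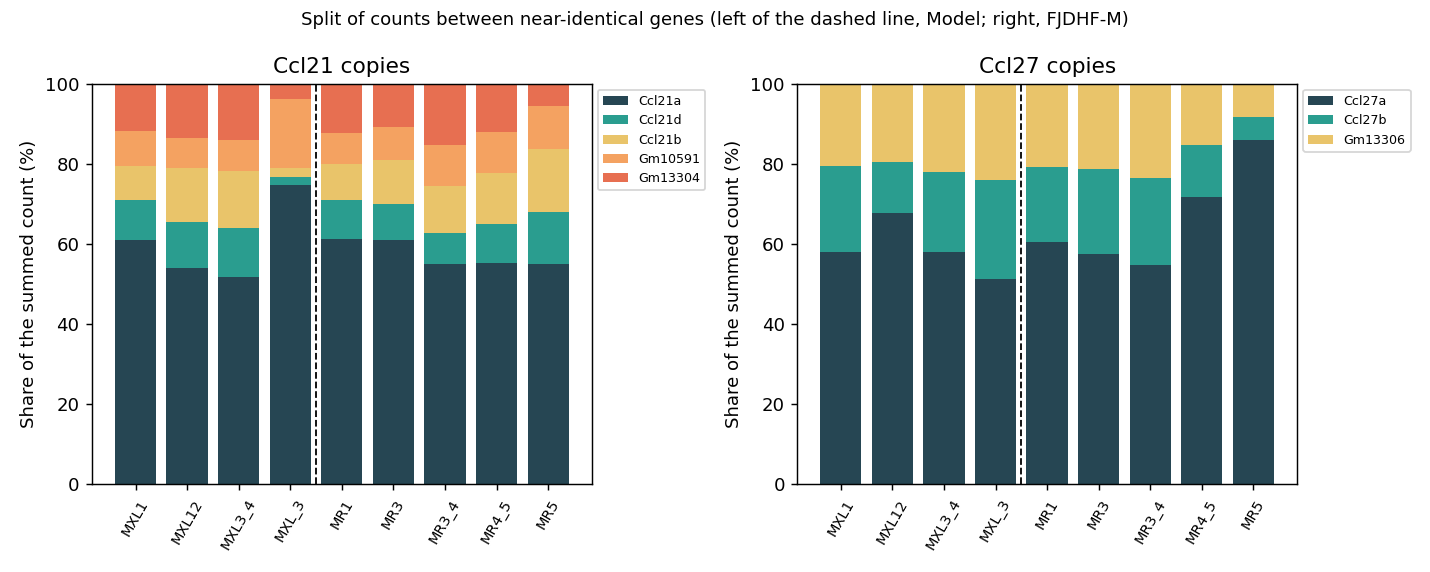
Share (%) of the summed count that each near-identical gene took, by library, for the Ccl21 copies (left) and the Ccl27 copies (right), with the 4 Model libraries left of the dashed line and the 5 FJDHF-M libraries right of it. Ccl21a took 51.7% to 74.7%, with the highest share in MXL_3, where Gm10591 took 17.3%, and Ccl27a took 51.3% to 85.8%, with the highest share in MR5.

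The share of Ccl21a was similar in 8 libraries and higher in the ninth. Ccl21a took 61.2%, 60.9%, 54.9%, 55.3% and 55.0% of the Ccl21 count in MR1, MR3, MR3_4, MR4_5 and MR5. In the Model libraries MXL1, MXL12 and MXL3_4 it took 61.1%, 53.9% and 51.7%, and in MXL_3 74.7%. Ccl21d, Ccl21b and Gm13304 held 2.02%, 2.26% and 3.76% of the count in MXL_3, against 7.69% to 12.9%, 8.53% to 15.7% and 5.62% to 15.2% in the other libraries. The share of 5.62% for Gm13304 was that of MR5, against 10.9% to 15.2% in the libraries besides MR5 and MXL_3. For Ccl27, the share of Ccl27a was 71.8% in MR4_5 and 85.8% in MR5, against 51.3% to 67.8% elsewhere. A sum over each family, in which reads that move from one copy to another cancel, is therefore given beside the values of Ccl21a and Ccl27a.

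Levels between genes were compared on the FPKM scale, which divides by gene length. The mean over all 9 libraries was 50.1 ± 32.2 FPKM for Ccl21a (SD, n = 9, as for the values that follow). Ccl27a followed at 3.18 ± 4.15, Ccl22 at 2.76 ± 1.37 and Ccl20 at 1.13 ± 0.836 FPKM. The receptors were low, with Ccr6 at 0.576 ± 0.277, Ccr4 at 0.565 ± 0.0996, Ccr7 at 0.273 ± 0.177 and Ccr10 at 0.104 ± 0.109 FPKM. Between the receptors lay Ccl17 at 0.404 ± 0.396 and Ccl19 at 0.275 ± 0.326 FPKM. Ccl21a exceeded Ccl27a in 9 of 9 libraries, Ccl22 exceeded Ccl20 in 8, Ccr7 exceeded Ccr10 in 8, and Ccl20 exceeded Ccr6 in 7. The other neighbours in this order did not separate, with the gene of higher mean on top in 3 of 9 libraries for Ccl27a over Ccl22, 4 for Ccr6 over Ccr4, 5 for Ccr4 over Ccl17, 4 for Ccl17 over Ccl19 and 3 for Ccl19 over Ccr7. The 2 ligands of CCR7 thus stood far apart, Ccl21a at the top of the order and Ccl19 near its end. The pseudogene Ccl19-ps3, not part of this order, stood at 2.22 ± 2.00 FPKM. How reads were split between it and Ccl19 was not examined, so the place of Ccl19 rests on the split as deposited.

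In edgeR's quasi-likelihood test of FJDHF-M against Model over 20817 genes with enough counts, no gene passed a Benjamini-Hochberg adjusted p under 0.05 with a change of at least 2-fold (0.0% of the genes tested), and the smallest adjusted p was 1.00. All 10 genes had enough counts to be tested. DESeq2's Wald test called 2 of the 20817 genes, neither of them among the 10, whose smallest adjusted p with DESeq2 was 0.581, and limma on log2(FPKM + 1) called 0. At an unadjusted p under 0.05, edgeR listed 326 of the 20817 genes (1.57%), and of the same genes DESeq2 listed 460 and limma 387. Ccr7 and Ccr6 were among those of edgeR, Ccr7 also in 9 of the 9 fits that left out 1 library and Ccr6 in 3 of the 9. DESeq2's list held the same 2 of the 10 genes, and that of limma held 4, with Ccl17 and Ccl19 added. Without MR3_4, edgeR listed 260 of 20514 genes, and 4 of the 10, namely Ccr7, Ccl22, Ccl19 and Ccl17. With any other library left out, it listed 1 or 2 of the 10. The log2 fold change was below 0 for 9 of the 10 genes, against 55.9% of all genes tested, and no gene of the 10 had groups that did not overlap, as 0.514% of all genes did. The median log2 fold change was -0.79 over the 10 genes and -0.03 over all genes tested. These counts follow from the contrast by which the genes were chosen, and nothing is read from them.

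**Figure D2:**
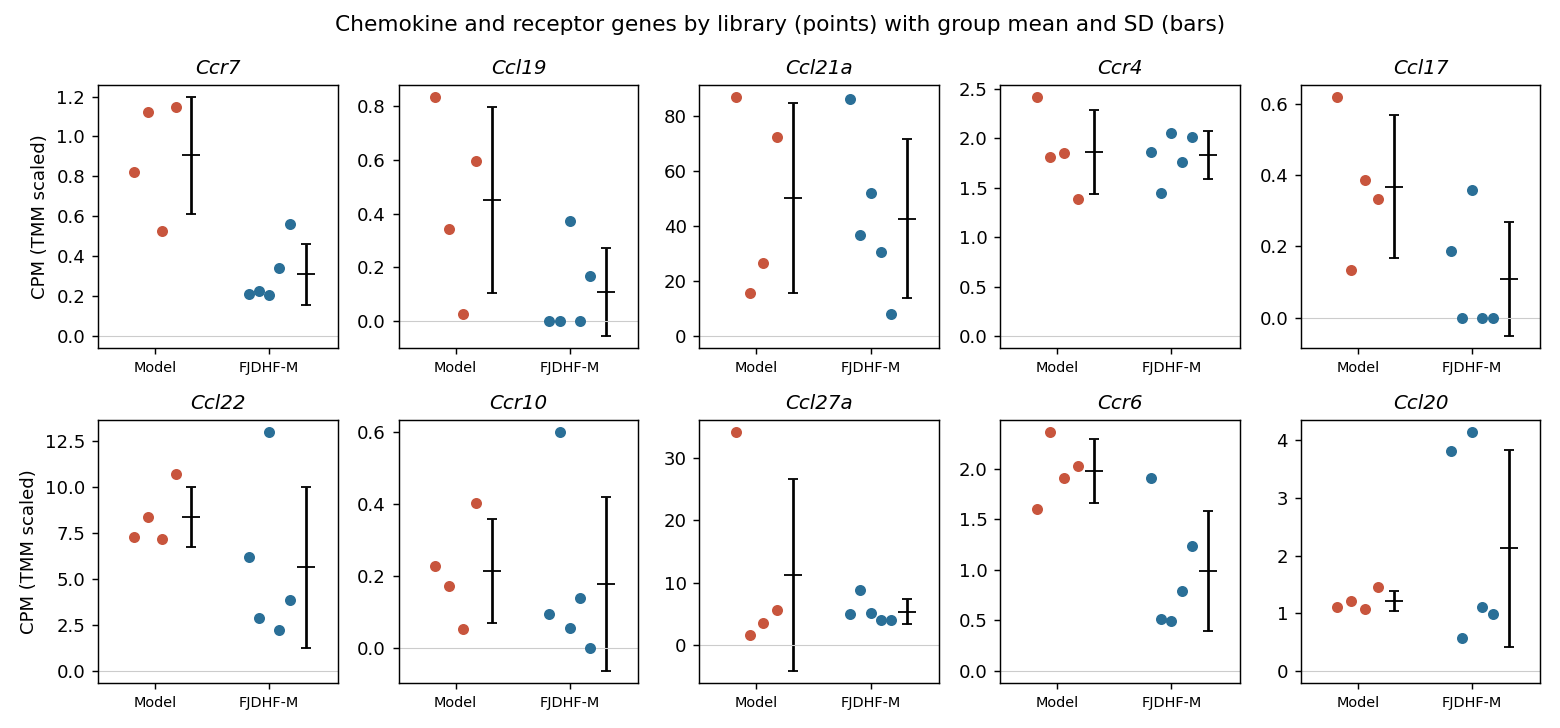
Level of each gene in CPM (y axis, linear, a scale of its own in each panel) for every library, with 4 Model libraries in red and 5 FJDHF-M libraries in blue. The bar beside each group gives the mean and SD. The groups overlap in every panel, most narrowly for Ccr7, where the highest FJDHF-M library (0.561 CPM) lies just above the lowest Model library (0.529 CPM).

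Ccr7 (ENSMUSG00000037944, chr11:99144196-99155077, minus strand), the receptor of the migrating dendritic cell, was counted at 16, 18, 15, 27 and 44 reads in MR1, MR3, MR3_4, MR4_5 and MR5. The Model libraries MXL1, MXL12, MXL3_4 and MXL_3 held 65, 85, 41 and 83 reads. Only MR5 reached the range of the Model libraries, just above MXL3_4. Mean levels were 0.309 ± 0.151 CPM in FJDHF-M (SD, n = 5) and 0.906 ± 0.292 CPM in Model (n = 4), a log2 fold change of -1.55 (SE 0.44), or 2.92-fold lower. With each library left out in turn, the log2 fold change of Ccr7 lay between -1.87 and -1.41.

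Ccl19 (ENSMUSG00000071005, chr4:42754525-42756577, minus strand), the ligand made by stromal cells of lymph nodes and by mature dendritic cells, was at the edge of detection. It was listed at 0 counts in MR1, MR3 and MR4_5, at 27 in MR3_4 and at 13 in MR5, and at 66, 26, 2 and 43 in MXL1, MXL12, MXL3_4 and MXL_3. Besides these 3 libraries MXL3_4 was thus at or under the floor of 3 counts. The means were 0.108 ± 0.164 CPM in FJDHF-M and 0.450 ± 0.347 CPM in Model, with a log2 fold change of -2.06 (SE 1.36), which became -3.39 without MR3_4. The pseudogene Ccl19-ps3 was counted at 12 to 79 reads in FJDHF-M and 16 to 179 in Model, with a log2 fold change of -1.31, and it held 79 reads in MR3, where Ccl19 had 0. Ccl19-ps1 held 2 to 12 reads in all libraries and was too low to be tested. Sharing of sequence between Ccl19 and these pseudogenes was not examined, so the split of reads between them is not known.

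Ccl21a (ENSMUSG00000094686), a ligand of CCR7, had 6477, 2949, 3766, 2433 and 626 counts in MR1, MR3, MR3_4, MR4_5 and MR5. The Model libraries MXL1, MXL12, MXL3_4 and MXL_3 held 6871, 1197, 2056 and 5218. Each group held libraries that differed several-fold, and their ranges lay over each other. The means of 42.7 ± 28.9 CPM in FJDHF-M and 50.4 ± 34.5 CPM in Model gave a log2 fold change of -0.24 (SE 0.63). Its sign turned without MR5 (0.03) and without MXL1 (0.16). Summed over the 5 copies, the level was 73.1 ± 47.2 CPM in FJDHF-M and 79.9 ± 50.2 CPM in Model, a log2 ratio of the means of -0.13. The log2 fold changes of the single copies were 0.07 for Ccl21d, 0.31 for Ccl21b, 0.21 for Gm13304 and -0.43 for Gm10591. Within the CCR7 axis the receptor and Ccl19 were thus low, with lower means in FJDHF-M, while Ccl21a was abundant and its groups overlapped widely, and these differences were not compared with each other.

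Lymphatic endothelium was followed through Lyve1, Prox1, Pdpn, Flt4, Reln and Mmrn1, and all 6 genes had a lower mean in FJDHF-M, with a median log2 fold change of -0.39 and 0 genes past the adjusted threshold. Prox1, the transcription factor that sets lymphatic identity, had a log2 fold change of -0.61 (SE 0.24), and Mmrn1 one of -0.43 (SE 0.19). The score of this list ranged from 4.34 to 5.14 in FJDHF-M and from 4.73 to 5.50 in Model. The part of these cells in the difference of Ccl21a between the groups was not tested. Of lymph node markers, Madcam1 and Chst4, genes of high endothelial venules, were too low to be tested, with means of 0.03 and 0.05 CPM in FJDHF-M and 0.05 and 0.14 CPM in Model. The list of lymph node stroma and high endothelial venules scored 0.29 to 0.67 in FJDHF-M and 0.31 to 0.65 in Model. Of its 4 tested genes 2 were higher and 2 lower, with a median of 0.00. Cxcl13, the most abundant of the list, had means of 37.3 CPM in FJDHF-M and 20.4 CPM in Model (log2 fold change 0.87, SE 0.49). Glycam1 went the other way, with a log2 fold change of -0.78 (SE 1.09).

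Cells that carry CCR7 were also measured by markers of their own. Of 14 tested genes of mature migratory dendritic cells (such as Fscn1, Cd83 and Socs2), 5 were higher and 9 lower in FJDHF-M with a median log2 fold change of -0.13, and their score was 2.24 to 2.87 in FJDHF-M against 2.25 to 2.83 in Model. Fscn1, which bundles actin in the mature dendritic cell, had means of 9.37 CPM in FJDHF-M and 10.2 CPM in Model. Of 15 genes of dendritic and Langerhans cells 7 were higher and 8 lower (median -0.08, score 3.25 to 4.36 against 3.65 to 4.23), and Cd207, the langerin of Langerhans cells, had a log2 fold change of -0.48 (SE 0.46). The list of naive and central memory T cells had 3 genes higher and 2 lower (median 0.24, score 2.94 to 4.15 against 3.48 to 4.43). No gene of these 3 lists passed the adjusted threshold or had an unadjusted p under 0.05. The part of these cells in the difference of Ccr7 between the groups was not tested.

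The CCR4 axis paired a steady receptor with scattered ligands. Ccr4 (ENSMUSG00000047898, chr9:114490316-114496562, minus strand) was counted at 140, 116, 149, 140 and 158 reads in MR1, MR3, MR3_4, MR4_5 and MR5 and at 191, 137, 143 and 100 in MXL1, MXL12, MXL3_4 and MXL_3. Its means were 1.83 ± 0.242 CPM in FJDHF-M and 1.86 ± 0.424 CPM in Model, with a log2 fold change of -0.03 (SE 0.26). The FJDHF-M values all lay inside the range of the Model values. The sign of this small difference turned without MR3 (0.02) and without MXL1 (0.12).

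Ccl22 (ENSMUSG00000031779, chr8:94745590-94751699, plus strand), made by dendritic cells and macrophages, had 464, 232, 943, 175 and 302 counts in MR1, MR3, MR3_4, MR4_5 and MR5. The Model libraries MXL1, MXL12, MXL3_4 and MXL_3 held 573, 630, 557 and 772. MR3_4 was above every Model library and the other FJDHF-M libraries were below them all. Mean levels of 5.62 ± 4.38 CPM in FJDHF-M and 8.36 ± 1.63 CPM in Model gave a log2 fold change of -0.57 (SE 0.48), which was -1.15 without MR3_4.

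Ccl17 (ENSMUSG00000031780, chr8:94810453-94812036, plus strand) lies beside Ccl22 on chromosome 8. It was listed at 0 counts in MR3, MR4_5 and MR5, at 14 in MR1 and at 26 in MR3_4, while MXL1, MXL12, MXL3_4 and MXL_3 held 49, 10, 30 and 24. All 4 Model libraries were above the floor of 3 counts, as were only 2 of the 5 FJDHF-M libraries. The means were 0.109 ± 0.161 CPM in FJDHF-M and 0.368 ± 0.201 CPM in Model, and the log2 fold change was -1.75 (SE 1.26), or -2.96 without MR3_4. With so few reads, a count of 0 still allows a level of up to 0.0375 to 0.0415 CPM.

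T cell markers, given beside CCR4 because T cells carry it, differed in both directions. Of 18 genes 12 were higher and 6 lower in FJDHF-M, with a median log2 fold change of 0.04 and a score of 1.31 to 2.52 in FJDHF-M against 1.62 to 1.96 in Model. Cd3e, a chain of the T cell receptor complex, had means of 2.03 CPM in FJDHF-M and 2.01 CPM in Model. The constant segment Trbc2 of the receptor had a log2 fold change of 0.79 (SE 0.44) and Ctla4, an inhibitory receptor, one of -0.96 (SE 0.47), and no gene of the list had an unadjusted p under 0.05.

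In the CCR10 axis both genes were set apart by single libraries. Ccr10 (ENSMUSG00000044052, chr11:101172997-101175443, minus strand) was counted at 7, 48, 4, 11 and 0 reads in MR1, MR3, MR3_4, MR4_5 and MR5 and at 18, 13, 4 and 29 in MXL1, MXL12, MXL3_4 and MXL_3. MR3 held the most reads and MR5 none, so the extremes of all libraries were both in FJDHF-M. The means were 0.177 ± 0.242 CPM in FJDHF-M and 0.213 ± 0.145 CPM in Model, with a log2 fold change of -0.26 (SE 1.05). That value ranged from -1.57 without MR3 to 0.24 without MXL_3, and it was 0.06 without MR5.

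Ccl27a (ENSMUSG00000073888, chr4:41769467-41774197, minus strand), the chemokine of keratinocytes, had 367, 698, 365, 318 and 309 counts in MR1, MR3, MR3_4, MR4_5 and MR5. The Model libraries MXL12, MXL3_4 and MXL_3 held 118, 273 and 400, and MXL1 held 2711. MXL1 alone decided the direction, since the means of 5.31 ± 1.97 CPM in FJDHF-M and 11.2 ± 15.5 CPM in Model gave a log2 fold change of -1.08 (SE 0.75), and without MXL1 it was 0.59. The family sum showed the same, with 59.1 CPM in MXL1 against 2.30 to 15.1 CPM in the other 8 libraries, and means of 8.52 ± 4.14 CPM in FJDHF-M and 19.6 ± 26.6 CPM in Model. Ccl27b and Gm13306 had log2 fold changes of -1.45 and -1.31. An exon of Ccl27a overlaps one of Il11ra1 on the opposite strand by 8 bases.

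Keratinocyte markers were given beside Ccl27a because keratinocytes make it. All 8 suprabasal genes had a higher mean in FJDHF-M (median log2 fold change 0.90), with 5 at an unadjusted p under 0.05 and 0 past the adjusted threshold. Among them Krt1 and Krt10, the keratins of differentiating epidermis, had log2 fold changes of 1.48 (SE 0.41) and 1.23 (SE 0.39), and Flg, the filaggrin of the cornified layer, one of 1.36 (SE 0.40). The score was 8.64 to 9.49 in FJDHF-M and 7.45 to 8.82 in Model. Of 6 basal genes 3 were higher and 3 lower (median 0.02), with a score of 7.28 to 8.57 in FJDHF-M and of 6.98 to 9.16 in Model, where the highest value was that of MXL1, the library with the high Ccl27a count. The part of keratinocytes in the difference of Ccl27a between the groups was not tested.

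In the CCR6 axis the receptor and the ligand had differences in mean of opposite sign. Ccr6 (ENSMUSG00000040899, chr17:8236043-8257141, plus strand) was counted at 144, 41, 36, 63 and 97 reads in MR1, MR3, MR3_4, MR4_5 and MR5. The Model libraries MXL1, MXL12, MXL3_4 and MXL_3 held 127, 179, 148 and 147. MR1 lay among the Model libraries and the other FJDHF-M libraries lay below them all. Mean levels were 0.990 ± 0.596 CPM in FJDHF-M and 1.98 ± 0.315 CPM in Model, a log2 fold change of -0.999 (SE 0.43), which was -1.38 without MR1.

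Ccl20 (ENSMUSG00000026166, chr1:83116766-83119167, plus strand), an epithelial chemokine that IL-17 is known to induce, was the one gene with a higher mean in FJDHF-M. It had 287, 45, 301, 88 and 78 counts in MR1, MR3, MR3_4, MR4_5 and MR5 and 88, 92, 83 and 105 in MXL1, MXL12, MXL3_4 and MXL_3. MR1 and MR3_4 stood far above all other libraries, and MR3 was the lowest of all. The medians lay close together and in the other order, at 1.11 CPM in FJDHF-M and 1.17 CPM in Model. The means of 2.12 ± 1.71 CPM in FJDHF-M and 1.21 ± 0.171 CPM in Model gave a log2 fold change of 0.81 (SE 0.58), or 0.42 without MR3_4.

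**Figure D3:**
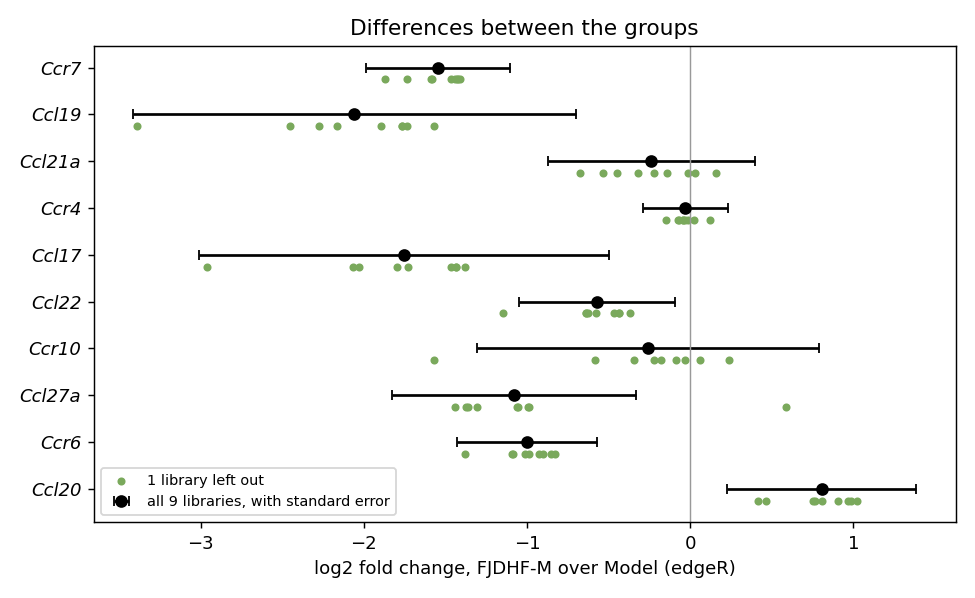
Log2 fold change of FJDHF-M over Model for each gene (x axis) from edgeR, with the black points and bars giving the value over all 9 libraries and its standard error and the green points the values with 1 library left out. Ccr7 stays between -1.87 and -1.41, while Ccl21a, Ccr4, Ccr10 and Ccl27a have values on both sides of 0.

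Markers of γδ T cells and B cells, cell types that include cells with CCR6, gave differing values. The γδ T cell markers do not single out the cells that carry CCR6. All 3 γδ T cell genes in the table (Trdc, Trdv4 and Cd163l1) had a lower mean in FJDHF-M, with a median log2 fold change of -0.90 and a score of 0.84 to 2.30 in FJDHF-M against 1.58 to 3.01 in Model. Trdv4, a variable segment used by dendritic epidermal and dermal γδ T cells, had a log2 fold change of -1.26 (SE 0.50), the only one of the 3 at an unadjusted p under 0.05. All 8 B cell genes had a higher mean in FJDHF-M, with a median of 0.21 and none at an unadjusted p under 0.05, and their score was low in both groups (0.27 to 0.87 against 0.23 to 0.83). Ms4a1, which encodes CD20, had means of 1.33 CPM in FJDHF-M and 0.95 CPM in Model. The part of either cell type in the difference of Ccr6 between the groups was not tested.

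The rest of the CC system was divided about evenly between higher and lower means. Of 13 other CC chemokines tested 7 were higher and 6 lower in FJDHF-M (median log2 fold change 0.02, score 2.62 to 3.19 against 2.32 to 3.66), and of 11 other CC and atypical receptors 5 were higher and 6 lower (median -0.16, score 3.29 to 3.95 in both groups). None of these genes passed the adjusted threshold or had an unadjusted p under 0.05. Ccl28, the second ligand of CCR10, had means of 1.27 CPM in FJDHF-M and 1.76 CPM in Model (log2 fold change -0.46, SE 0.42). Ackr4, which scavenges CCL19, CCL20 and CCL21, had means of 26.7 and 33.9 CPM (log2 fold change -0.34, SE 0.33), and Ackr2, which scavenges CCL17 and CCL22, of 6.15 and 6.86 CPM (log2 fold change -0.16, SE 0.47).

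Of 8 tested cytokines that act upstream of these chemokines 3 were higher and 5 lower (median -0.30, score -0.02 to 0.48 in FJDHF-M and 0.10 to 0.94 in Model), and 0 passed the adjusted threshold. Il17a, Il22 and Il13 were too low to be tested, with means of 0.13, 0.00 and 0.01 CPM in FJDHF-M and 0.04, 0.03 and 0.06 CPM in Model. Il4 had means of 1.16 CPM in FJDHF-M and 1.14 CPM in Model. All 8 neutrophil genes had a lower mean in FJDHF-M, with a median log2 fold change of -0.86, but the score of 2.15 to 5.40 in Model enclosed that of 2.72 to 3.60 in FJDHF-M, and the highest value belonged to MXL12. The 8 muscle genes had a median of -0.19, with 3 higher and 5 lower, and the median was 1.17 without MXL_3 and -0.56 without MXL12.

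Whether a receptor and its ligand, or a gene and the cells that carry it, varied together was asked over the 9 libraries in 16 relations of log2(CPM + 0.5), each tested two-sided by exact permutation of all pairings, and Benjamini-Hochberg adjustment over the 16. None had an adjusted p under 0.05. Ccl17 and Ccl22, the 2 ligands of CCR4, gave the highest correlation, with Pearson's r = 0.769 (exact permutation p = 0.017, adjusted p = 0.271) and Spearman's rho = 0.678 (exact permutation p = 0.0537, adjusted p = 0.531). It was 0.851 without MXL1, the library farthest from the median of Ccl17, and MR3, which tied with MR4_5 and MR5 as next farthest. On deviations from the group means r was 0.665, and with any 1 library left out it lay between 0.713 and 0.880. The 3 libraries with 0 counts of Ccl17 were the 3 lowest in Ccl22.

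Ccr7 and Ccl19 followed with r = 0.670 (exact permutation p = 0.0539, adjusted p = 0.431) and rho = 0.559 (exact permutation p = 0.127, adjusted p = 0.531). This relation was 0.575 without MXL12 and MXL_3 and 0.402 within groups, that is on deviations from the group means, and so lower once the difference between the groups was taken out. It reached 0.838 without MR3_4. Ccl22 and the score of mature migratory dendritic cells gave r = 0.569 (exact permutation p = 0.113, adjusted p = 0.601), rho = 0.550 (exact permutation p = 0.133, adjusted p = 0.531) and 0.592 within groups, and r was 0.599 without MR3 and MR4_5.

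Receptors did not track their other ligands in a way that 9 libraries could show. The correlation r was 0.423 for Ccr4 with Ccl17, 0.174 for Ccr4 with Ccl22, 0.361 for Ccr10 with Ccl27a, -0.137 for Ccr7 with Ccl21a and -0.01 for Ccr6 with Ccl20, with rho of 0.475, 0.233, 0.617, -0.150 and 0.250. Without the 2 libraries farthest from the median of the first gene, these r were 0.465, 0.576, 0.440, -0.191 and 0.310. The value of Ccr4 with Ccl17 was 0.064 without MXL1 and 0.710 without MXL_3. The adjusted exact permutation p for r lay between 0.786 and 0.987 over these 5 relations. Ccl19 and Ccl21a, the 2 ligands of CCR7, gave r = 0.301 and rho = 0.288, and r = -0.308 without MXL1 and MXL_3, so the positive value rested on those libraries.

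The relations with cell markers were as weak. Ccr7 gave r = 0.111 (rho = -0.100) with mature migratory dendritic cells, -0.099 (rho = -0.150) with T cells and -0.271 (rho = -0.267) with B cells, and -0.351, -0.229 and 0.178 without MXL12 and MXL_3. For Ccr4 with T cells r was 0.357 (rho = 0.450) and 0.597 without MXL1 and MXL_3, and for Ccl21a with lymphatic endothelium r was 0.413 (rho = 0.400) and 0.299 without MR5 and MXL1. Ccl27a and suprabasal keratinocytes gave r = 0.281 (rho = 0.067), which was -0.071 without MXL1 and MXL12, and Ccr6 and B cells -0.02 (rho = -0.100) and -0.06 without MR3 and MR3_4. The adjusted exact permutation p for r of these 7 relations lay between 0.786 and 0.987.

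**Figure D4:**
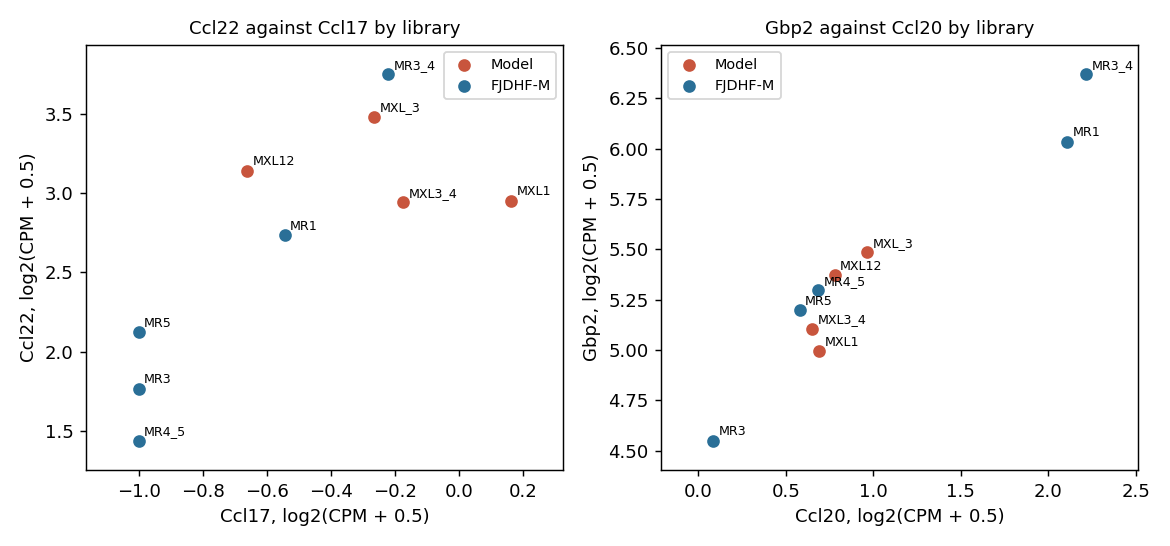
Ccl22 against Ccl17 (left) and Gbp2 against Ccl20 (right), both axes log2(CPM + 0.5), each point 1 library (4 Model in red, 5 FJDHF-M in blue) with its code. Ccl17 and Ccl22 correlate with r = 0.769, with MR3, MR4_5 and MR5 lowest in both, and Gbp2 and Ccl20 with r = 0.965, with MR1 and MR3_4 highest in both.

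The genes whose levels were most like those of 4 of the genes were sought among 15709 tested genes with a mean of at least 1 CPM, as a description over 9 libraries that share their group and tissue make-up. With so many genes and 9 libraries, high values of r also arise by chance, and these r were not tested. Ccl20 was most like Gm4951 (r = 0.980), Igtp (r = 0.978) and Gbp2 (r = 0.965), of which Igtp and Gbp2 encode GTPases known to be induced by interferon. Gbp2 stood at 65.0 CPM in MR1 and 82.2 CPM in MR3_4, the same 2 libraries that were high in Ccl20, and at 22.9 CPM in MR3, the lowest. It lay between 31.4 and 44.3 CPM in the other 6 libraries. The lowest r of Gbp2 with Ccl20 was 0.939 with 1 library left out, that library being MR3_4.

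Ccl27a was most like Trp53i13 (r = 0.986), Rplp2 (r = 0.980), which encodes a protein of the large ribosomal subunit, and Chpf (r = 0.977), an enzyme of chondroitin synthesis. All 3 were highest in MXL1, with Rplp2 at 32.9 CPM there against 3.55 to 13.7 CPM elsewhere, and without MXL1 the 3 correlations were 0.963, 0.941 and 0.910. Ccr7 was most like Mmp8 (r = 0.914), the neutrophil collagenase, Bhlhe22 (r = 0.881) and 2810433D01Rik (r = 0.867). Mmp8 had 10.3 CPM in MXL12 and 9.64 CPM in MXL_3, the 2 libraries with the most Ccr7. It lay at 1.94 to 4.36 CPM in FJDHF-M and at 4.93 to 10.3 CPM in Model, without overlap. Its r with Ccr7 therefore contains the difference between the groups by which Ccr7 was chosen. Ccl17 was most like Chrac1 (r = 0.925), a subunit of a chromatin remodelling complex, Clca3a2 (r = 0.918) and Edn3 (r = 0.904), which encodes endothelin 3, and Clca3a2 peaked at 227.8 CPM in MXL1, the library with the most Ccl17.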

How the data were processed

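RNA-seq of mouse back skin was analysed for 4 Model and 5 FJDHF-M libraries. The authors deposited whole-number read counts per gene without normalization, for 55401 genes, and FPKM values, which are counts that the authors scaled for gene length and depth, for 34637 genes with names and positions. Per the labels, HISAT, StringTie and DESeq2 were used with the mm10 build, and versions, annotation release and the strand setting of the counting are not given in the sources used here. The FPKM table also holds 9 count columns, which were not used. Columns were tied to groups by their codes and not to single mice.

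The genes and marker lists were chosen with earlier results of these data known. The count model was that of edgeR 4.0.16 under R 4.3.3 (filterByExpr, TMM scaling, quasi-likelihood test, Benjamini-Hochberg adjustment over 20817 genes, no covariate). Marker scores are means of log2(CPM + 0.5) over a list. The 15 lists are described by counts and medians, without a set test. Of the γδ T cell genes listed, Tcrg-C1, Tcrg-C2 and Tcrg-V5 were not matched, nor was Ccl26 of the chemokines. Correlations used exact permutation over all pairings. Named beside the 10 genes were their near-identical copies, Ccl28, Ackr2 and Ackr4, other CC genes at an unadjusted p under 0.05, and for Ccr7, Ccl17, Ccl27a and Ccl20 the 3 tested genes of at least 1 CPM with the highest Pearson r. Other genes named are examples from the lists, chosen after their values were seen. Copies were compared by exact matches of windows of 150 bases in GENCODE M21 transcripts (GRCm38). Steps were tested on simulated data.

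Alternatives were DESeq2's size factors, the Wald test of DESeq2 1.42.0, limma 3.58.1 on log2(FPKM + 1), testing every gene, a minimum of 10 counts per library, the skeletal muscle score as covariate, a replicate block, each library left out in turn, and for correlations a pseudocount of 0.1, log2(FPKM + 0.5), deviations from group means and leaving out the 2 farthest libraries. Analyses of tables and figures used Python 3.11.15 and matplotlib 3.10.9.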

Additional observations from a re-analysis of the deposited data

Results flagged for a closer look

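Within the groups, 54 sets of values were searched for a library far from the others, with Dixon's ratio of the gap to the range. Of these, 8 passed the 95% critical value, where chance gives about 1 in 20, or 2.7. Among the genes, Ccl27a in MXL1 (ratio 0.879), Ccl27a in MR3 (0.772) and Ccr10 in MR3 (0.769) stood highest in their groups, and so did the summed Ccl27 copies in MXL1 (0.850). Among marker scores, B cells were highest in MXL1 (0.867), naive and central memory T cells in MXL12 (0.839) and lymph node stroma and high endothelial venules in MXL12 (0.871), while T cells were lowest in MXL3_4 (0.888). MR3 was thus the highest FJDHF-M library in both the receptor and the ligand of the CCR10 axis.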

How the results depend on the processing

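No gene passed the adjusted threshold of edgeR under any alternative, and DESeq2's Wald test called 2 genes. Without the filter 905 genes had an unadjusted p under 0.05, and with 1 library left out 217 to 734. The signs of Ccr7, Ccl19, Ccl17, Ccl22, Ccr6 and Ccl20 stayed as given under all alternatives in which they were tested, which with at least 10 counts in every library were 7 of the 10 genes. With limma the value of Ccr4 was 0.00070. With 1 library left out, the log2 fold change ranged from -0.67 to 0.16 for Ccl21a, -0.15 to 0.12 for Ccr4, -1.57 to 0.24 for Ccr10 and -1.44 to 0.59 for Ccl27a, and the list medians from -0.31 to 0.35 for other CC receptors, 0.089 to 0.62 for B cells, -0.23 to 0.83 for basal keratinocytes, -1.22 to 0.47 for neutrophils and -0.48 to 0.22 for upstream cytokines, with the highest medians reached without MXL_3 (receptors), MXL1 (B cells and keratinocytes) and MXL12 (neutrophils and cytokines). Correlations ranged from -0.38 to 0.076 for Ccr7 with Ccl21a, -0.48 to 0.25 for Ccr7 with T cells, -0.11 to 0.34 for Ccr7 with mature dendritic cells, -0.064 to 0.53 for Ccr4 with Ccl22, -0.34 to 0.55 for Ccr6 with Ccl20 and -0.20 to 0.11 for Ccr6 with B cells. On deviations from group means, r was 0.287 for Ccr6 with Ccl20, 0.051 for Ccr7 with B cells and 0.362 for Ccr6 with B cells. Without the 2 farthest libraries it was 0.310, 0.178 for Ccr7 with B cells, -0.308 for Ccl19 with Ccl21a, -0.351 for Ccr7 with mature dendritic cells and -0.071 for Ccl27a with suprabasal keratinocytes, and with a pseudocount of 0.1 it was 0.022 for Ccr6 with Ccl20. The median of the lymph node list was -0.39 without the filter. The causes were not tested. Reads limit Ccl19, Ccl17 and Ccr10 most, with 0 counts in 3, 3 and 1 libraries.

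Codes 1, 3 and 3_4 occur in both groups, but no source says that they pair mice, and the deviations from group means of such libraries correlated with r = 0.225, 0.118 and -0.219. With these numbers as a replicate block, 0 genes passed the adjusted threshold and 281 had an unadjusted p under 0.05. Among the 10 genes only Ccr7 kept an unadjusted p under 0.05 with the block, and the log2 fold change became -4.03 for Ccl19, -0.44 for Ccl27a, -0.0066 for Ccl21a and -0.05 for Ccr4. It moved list medians to 0.50 for other CC chemokines, 0.22 for other CC receptors, 0.22 for mature dendritic cells, 0.37 for the lymph node list, 0.51 for neutrophils and 0.18 for upstream cytokines.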
